A study of Mus musculus with 2 samples.

Results

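Killer lectin receptors and C-type lectin receptors were compared in mouse lymphocytes polarized towards the Th17 or the Th1 fate of helper T cells, each population hybridised against Th0 cells. The members were all genes whose single symbol in the array's annotation begins with Klr, or with Clec and a digit. This rule gave 53 of the 17501 named genes, read by 75 of the 36547 probes: 13 Klra genes, 12 genes from Klrb to Klrk and 28 Clec genes. All 3 populations are labelled as lymphocytes of a TRP-1 mouse, and nothing states whether 1 mouse gave them all. There was 1 2-colour array for Th17 and Th0 cells and 1 for Th1 and Th0 cells, with the polarized population in Cy5 and the Th0 population in Cy3 on both, per the labels. The sources used here do not give the polarizing agents, any sorting of the cells or the number of animals. No value has a replicate or a dye swap, so none was tested, and the number of arrays limits the precision.

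Each value is a log2 ratio of the channels as deposited, so a value of 1 or −1 is a 2-fold difference, and the difference between the arrays is the Th17 value minus the Th1 value. That difference takes the Th0 RNA to be the same on both arrays, which the labels do not state. The order of the ratio is not settled. As titled, a positive value would mean more RNA in the polarized cells, yet Il17a, the gene of the cytokine that names the Th17 lineage, lay at −5.37 on the Th17 and Th0 array, and Ifng, the interferon gamma gene of Th1 cells, lay at −2.02 on the Th1 and Th0 array. Values are therefore given as the positive or negative side of the ratio. With the sign turned, the positive side means more RNA in Th0 cells, and a positive difference means more in Th1 than in Th17 cells. Ratios hold no level, so whether a marker was present or absent cannot be read from them. In such bulk RNA, fewer cells of a type and less RNA per cell cannot be told apart.

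Killer lectin receptors are paired membrane proteins of natural killer (NK) cells and of some T cells. Inhibitory forms recruit phosphatases through a tyrosine motif in their tails, and activating forms signal through the adaptors DAP12 (Tyrobp) or DAP10 (Hcst). Klra genes encode the Ly49 receptors, many of which bind MHC class I, Klrc and Klrd1 genes the NKG2 and CD94 chains that bind Qa-1, and Klrb1 genes receptors whose ligands are Clec2 proteins. Most Clec4, Clec5 and Clec7 proteins are receptors of myeloid and dendritic cells for microbial or damaged-cell ligands.

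Large ratios were common among these genes on both arrays as deposited. On the Th17 and Th0 array 21 of 53 members (39.6%) were at least 2-fold apart, where 8.42% of all named genes were, while on the Th1 and Th0 array 18 of 53 (34%) were, against 10.2% of all. In the difference between the arrays 18 of 53 were at least 2-fold apart, against 8.14% of all genes. The plot of shares shows this for the 3 groups of members beside all named genes. These members lay on both sides: 11 positive and 10 negative on the Th17 and Th0 array (2.9% and 5.52% of all genes), 9 and 9 on the Th1 and Th0 array (3.27% and 6.92%), and 10 and 8 in the difference (4.53% and 3.61%).

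The split and the share apart depend on where an array's zero is put. Centring each array on its most repeated value, on which probes with equal signals appear to lie, raises all values by 0.43 on the Th17 and Th0 array and by 0.85 on the Th1 and Th0 array. The split was then 15 positive and 8 negative on the first and 16 and 3 on the second, and 6 and 10 in the difference. Among all 17501 named genes, 1429 were then positive and 486 negative on the first, and 5214 and 297 on the second. In the difference 370 and 1660 were. Counting both sides, 23 of 53 members and 1915 of all genes were then 2-fold apart on the first array. On the second, 19 of 53 and 5511 were, so the excess of members there depends on the zero. Centring on control genes gave 6 positive and 13 negative members on the Th1 and Th0 array and 13 and 5 in the difference. Over all named genes it gave 317 positive and 2057 negative on the Th1 and Th0 array and 1349 and 412 in the difference.

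**Figure D1:**
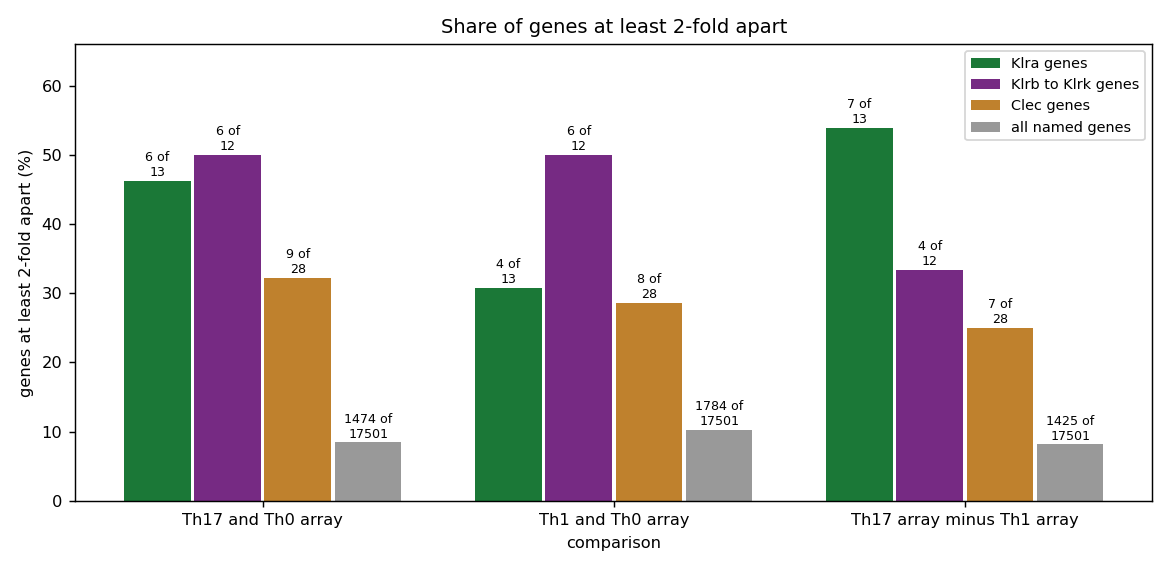
Percentage of genes with an absolute log2 value of at least 1 for Klra, Klrb to Klrk and Clec genes and for all named genes, on the Th17 and Th0 array, on the Th1 and Th0 array and in the difference between them. Numbers above the bars are genes past 2-fold of genes measured. As deposited, each group of members stands above the share of all named genes in all 3 comparisons. Centred on the most repeated value, the Th1 and Th0 array had 1 of 13 Klra genes and 5511 of 17501 named genes past 2-fold.

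Klra genes, which encode the Ly49 receptors, differed between the arrays in 1 direction. The difference was above 0 for 12 of 13 genes and at least 2-fold positive for 7, where 53.9% and 4.53% of all named genes were. The median was 1.09 beside 0.04 over all named genes. After centring on the most repeated value 11 of 13 stayed above 0 and 6 were 2-fold apart, and after centring on control genes 12 and 8. Of all 17501 named genes, 2933 were above 0 and 370 at least 2-fold positive with the first centring. With the second, 13481 and 1349 were. Klra genes are close relatives of each other, so their probes may share signal and the 13 values are not independent.

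The genes that stood on the positive side of the Th17 and Th0 array included 3 receptors known as inhibitory. Klra5, which encodes Ly49E, lay at 1.66 on the Th17 and Th0 array and at −0.29 on the Th1 and Th0 array, a difference of 1.95 (3.86-fold). Klra6, the gene of Ly49F, lay at 1.78 and 1.45 with its probes on the Th17 and Th0 array and at −0.20 and −0.36 on the Th1 and Th0 array, a difference of 1.90 between the means. The probe at −0.36 fits a weaker-channel signal as low as 5 units on that array if signals are whole numbers, though multiples of it fit too. Klra3, the gene of Ly49C, lay at 1.15 on the Th17 and Th0 array and at −0.57 on the Th1 and Th0 array, a difference of 1.72. All 3 lay on opposite sides in the deposited values. Centring on the most repeated value, which adds 0.85 to the Th1 values, puts all 3 above 0 on both arrays.

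Klra10, the gene of Ly49J, had the largest difference of the Klra genes. Its probes lay at 1.40 and 1.25 on the Th17 and Th0 array and at −0.68 and −0.66 on the Th1 and Th0 array, a difference of 1.997 (3.99-fold) between the means. A probe shared with Klra9 lay at −0.55 on the Th17 and Th0 array and at −2.58 on the Th1 and Th0 array, so the side on the Th17 and Th0 array depends on the probe. Klra16, which encodes Ly49P, lay at 0.85 on the Th17 and Th0 array and at −0.64 on the Th1 and Th0 array, a difference of 1.49. Centring on the most repeated value puts both genes above 0 on the Th1 and Th0 array.

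The genes of Ly49H and Ly49D, both known as activating, also had positive differences. Klra8, the gene of Ly49H, which is known for recognising a cytomegalovirus protein, lay at −0.13 on the Th17 and Th0 array and at −1.74 on the Th1 and Th0 array, a difference of 1.61. Klra4, the gene of Ly49D, lay at −0.50 on the Th17 and Th0 array and at −1.59 on the Th1 and Th0 array, a difference of 1.09. Its Th1 value fits a weaker channel as low as 3 units if signals are whole numbers, though multiples of it fit too. As deposited, both genes lay below 0 on each array and passed 2-fold on the Th1 and Th0 array. There neither gene did after centring on the most repeated value.

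Klra2 stood apart from the other Klra genes. This gene of Ly49B, a form found on myeloid cells, lay at 1.28 on the Th17 and Th0 array and at 1.65 on the Th1 and Th0 array, and was the 1 Klra gene above 0 on the Th1 and Th0 array and the 1 with a negative difference (−0.37). Centring on the most repeated value puts 10 of the 13 above 0 on the Th1 and Th0 array and 2 below 0 in the difference. Of all 17501 named genes it puts 15815 above 0 on the Th1 and Th0 array and 14565 below 0 in the difference. Klra23 lay below −1 on both arrays, at −1.12 on the Th17 and Th0 array and −1.71 on the Th1 and Th0 array, but its probes disagreed on the first (−0.33 and −1.91).

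The remaining Klra genes were Klra1 (Ly49A), the pseudogene Klra13-ps, Klra17 (Ly49Q, known from plasmacytoid dendritic cells) and Klra22, a gene number not matched in the current list. None of these 4 was 2-fold apart in any of the 3 comparisons. On the Th17 and Th0 array they ranged between −0.33 and 0.32, with Klra22 nearest to 0 at 0.08, and between −0.82 and −0.27 on the Th1 and Th0 array, where Klra17 lay nearest to 0. The probes of Klra13-ps lay at 0.85 and −0.25 on the Th17 and Th0 array and at −0.45 and −0.36 on the Th1 and Th0 array, so a positive value there rests on 1 probe.

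**Figure D2:**
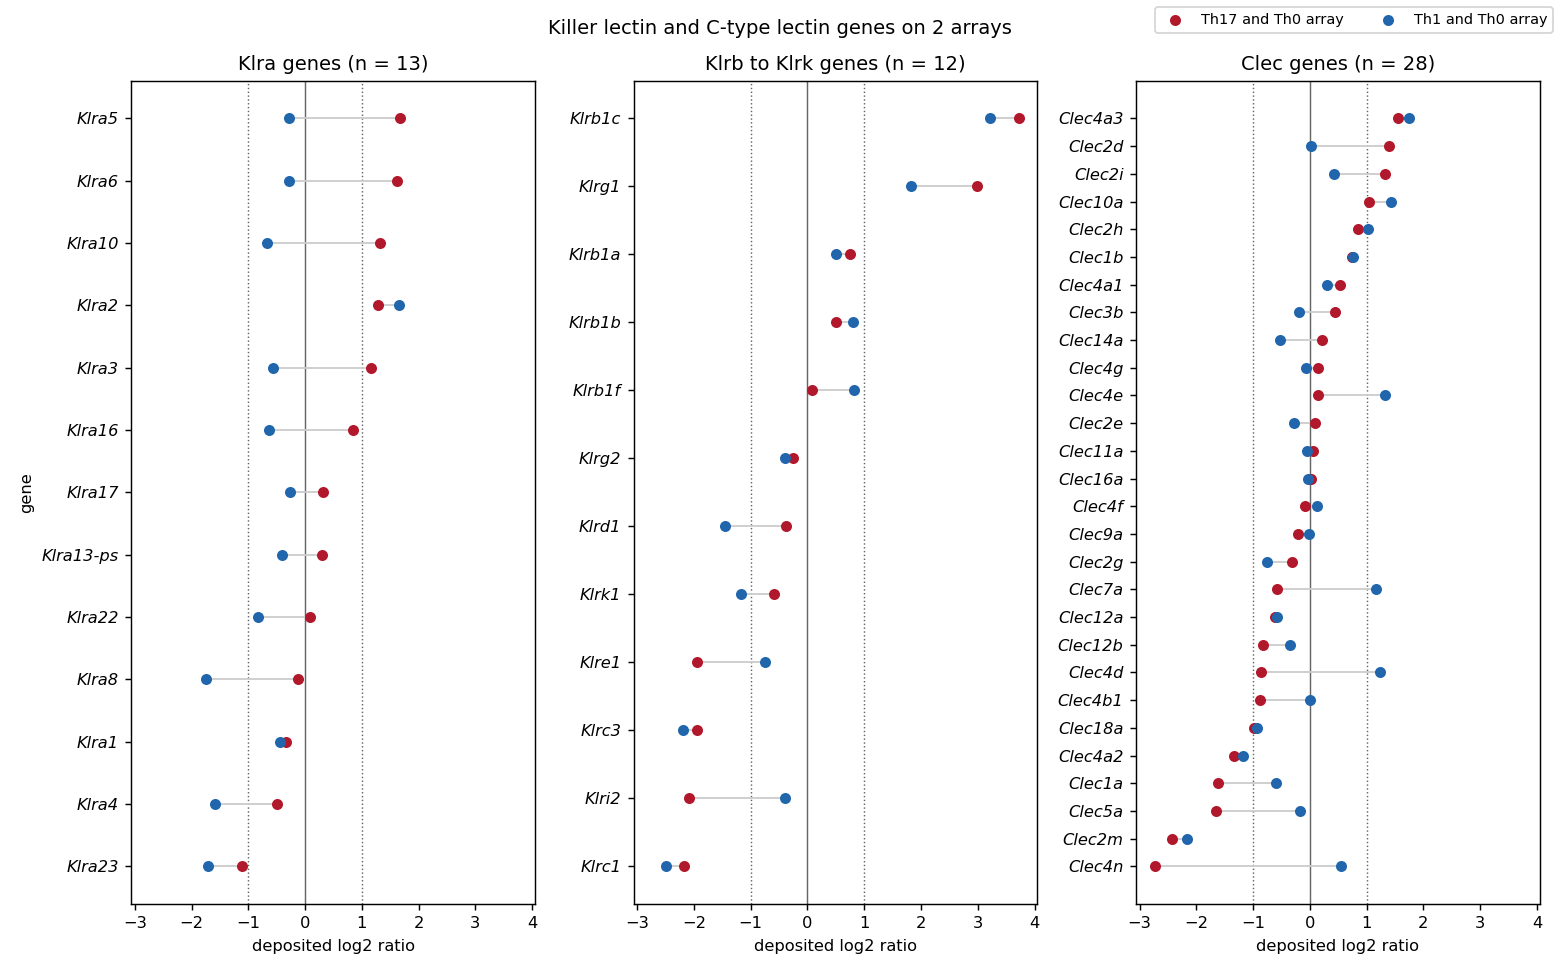
Deposited log2 ratio of each of the 53 members on the Th17 and Th0 array (red) and on the Th1 and Th0 array (blue), with genes in rows, ordered by the Th17 value within each group, and dotted lines at 2-fold. In the Klra panel the red point lies right of the blue one for 12 of 13 genes as deposited (11 of 13 with arrays centred on the most repeated value). The difference was positive for 53.9% of all named genes as deposited. In the Clec panel the widest gap is that of Clec4n.

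The upstream sequences are shown of Klra5, Klra6 and Klra3, at least 2-fold positive on the Th17 and Th0 array, and of Klra8, at −0.13 there. As deposited, all 4 lay below 0 on the Th1 and Th0 array, and the differences of Klra8 (1.61) and Klra3 (1.72) were alike. RefSeq windows (build GRCm38.p6) were on hand for 42 of the 53 members. The 250 bases before the annotated start are given 5′ to 3′ for Klra5, Klra6, Klra3 and Klra8. Klrb1c and Klrc1, the members with the largest positive and negative Klr values on both arrays, are given too. Klra8 had 2 windows, of which the first listed was used. Capitals mark, in the Klra genes, the longest run of bases shared by all 4 windows (13 bases) and, in the others, a match to the Runx site TGTGGT on either strand.
Klra5, chr6:129913225-129913474, minus strand: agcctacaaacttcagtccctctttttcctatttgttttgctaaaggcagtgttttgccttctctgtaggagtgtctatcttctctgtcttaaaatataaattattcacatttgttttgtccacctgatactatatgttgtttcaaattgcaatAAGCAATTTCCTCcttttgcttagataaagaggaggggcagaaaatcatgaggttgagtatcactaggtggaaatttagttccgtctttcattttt
Klra6, chr6:130026955-130027204, minus strand: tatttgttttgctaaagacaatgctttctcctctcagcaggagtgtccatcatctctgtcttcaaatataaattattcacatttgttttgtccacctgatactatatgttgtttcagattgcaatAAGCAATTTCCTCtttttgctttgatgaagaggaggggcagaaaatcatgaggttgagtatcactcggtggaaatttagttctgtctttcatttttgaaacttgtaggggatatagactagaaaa
Klra3, chr6:130337627-130337876, minus strand: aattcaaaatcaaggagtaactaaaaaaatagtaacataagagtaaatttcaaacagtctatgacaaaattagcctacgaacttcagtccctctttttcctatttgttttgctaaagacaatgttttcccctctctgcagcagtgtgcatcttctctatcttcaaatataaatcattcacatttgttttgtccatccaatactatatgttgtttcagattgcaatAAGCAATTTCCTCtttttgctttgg
Klra8, chr6:130129899-130130148, minus strand: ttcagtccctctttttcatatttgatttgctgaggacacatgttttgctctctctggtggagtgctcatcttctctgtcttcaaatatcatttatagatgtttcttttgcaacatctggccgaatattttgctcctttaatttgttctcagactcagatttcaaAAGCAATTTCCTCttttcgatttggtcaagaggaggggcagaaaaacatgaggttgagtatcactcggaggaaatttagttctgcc
Klrb1c, chr6:128788642-128788891, minus strand: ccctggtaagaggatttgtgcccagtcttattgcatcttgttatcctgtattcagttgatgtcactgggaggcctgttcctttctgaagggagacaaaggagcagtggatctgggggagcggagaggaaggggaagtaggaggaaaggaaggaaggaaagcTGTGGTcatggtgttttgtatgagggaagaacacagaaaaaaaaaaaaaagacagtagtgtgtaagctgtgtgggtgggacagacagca
Klrc1, chr6:129678974-129679223, minus strand: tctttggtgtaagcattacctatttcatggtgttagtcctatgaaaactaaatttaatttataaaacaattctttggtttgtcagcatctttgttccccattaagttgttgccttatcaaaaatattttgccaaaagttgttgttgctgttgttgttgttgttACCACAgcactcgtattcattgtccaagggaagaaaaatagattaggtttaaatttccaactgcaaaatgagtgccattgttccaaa

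Aligned with free ends, the window of Klra5 was identical to that of Klra6 at 92.3% of 221 aligned bases and to that of Klra3 at 89.4% of 179, while Klra8 matched Klra5 at 83.7% of 227. The window of Klra8 matched those of Klra6 and Klra3 at 85.2% and 83.2%. Whether likeness of windows goes with the array values was not tested. Pairs from different branches of the family lay between 59.4% (Klrb1c and Klrc1) and 71.4% (Klra8 and Klrc1). Motifs were searched on both strands: TCACAC (T-box), TGTGGT (Runx), TTCNNNGAA (STAT) and AGGTCA (ROR). None of them was found in the 4 Klra windows. The Runx letters were found once each in Klrb1c and Klrc1, in 12 of 42 member windows (28.6%), and in 14.2% of the 27025 genes with a window. The T-box, STAT and ROR letters were found in 4, 3 and 6 of the 42 member windows and in 12.2%, 7.18% and 13.8% of all. A match to such short letters is a description of the window and does not show binding.

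Among the genes from Klrb to Klrk the ratios were the largest of the Klr genes on either array. Of 12 genes, 6 passed 2-fold on each array, 2 positive and 4 negative on each. The positive and negative shares of all named genes were 2.9% and 5.52% on the Th17 and Th0 array. On the Th1 and Th0 array they were 3.27% and 6.92%. The arrays may share their Th0 RNA, so each array's own values are given side by side and no likeness between them is read as a result. Centring on the most repeated value turned the median of the group from −0.32 to 0.11 on the Th17 and Th0 array and from −0.39 to 0.46 on the Th1 and Th0 array.

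Klrb1c encodes NK1.1, the activating receptor by which NK cells are recognised in many strains. It lay at 3.72 (13.2-fold) on the Th17 and Th0 array and at 3.22 (9.32-fold) on the Th1 and Th0 array, the highest values of all 53 members on both. Klrg1, an inhibitory receptor for cadherins that marks late effector T cells and mature NK cells, followed at 2.99 (7.94-fold) on the Th17 and Th0 array and 1.82 (3.54-fold) on the Th1 and Th0 array, a difference of 1.17. Both genes had 1 probe. The family markers thus did not share a side: Klrb1c lay on the positive side of both arrays, Klrc1 on the negative side of both, and Klra3 on opposite sides as deposited.

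The other Klrb1 genes lay closer to 0. Klrb1a, Klrb1b, which encodes an inhibitory receptor for Clec2d, and Klrb1f, a receptor for Clec2i, were not 2-fold apart in any comparison, nor was Klrg2. These 4 genes ranged between −0.26 and 0.75 on the Th17 and Th0 array and between −0.39 and 0.82 on the Th1 and Th0 array. The 3 probes of Klrb1f ran between −0.03 and 0.18 on the Th17 and Th0 array and between 0.60 and 0.98 on the Th1 and Th0 array. Of the Klrb1b probes, the one with an outdated gene number lay at 0.65 and 1.03, and the rest at 0.73 and 0.12 on the Th17 and Th0 array and at 0.72 and 0.64 on the Th1 and Th0 array.

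Genes of the NKG2 and CD94 complex lay on the opposite side from Klrb1c. Klrc1, the gene of the inhibitory chain NKG2A, lay at −2.17 (4.49-fold) on the Th17 and Th0 array and at −2.49 (5.61-fold) on the Th1 and Th0 array. Klrc3, the gene of the related chain NKG2E, lay at −1.95 on the Th17 and Th0 array and at −2.19 on the Th1 and Th0 array. Both stayed below −1 on both arrays when these were centred on the most repeated value.

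Klrd1, the gene of CD94, the partner of these chains, lay at −0.38 on the Th17 and Th0 array and at −1.46 on the Th1 and Th0 array, a difference of 1.08. Klrk1, which encodes the activating receptor NKG2D, had 3 probes between −0.64 and −0.51 on the Th17 and Th0 array and between −1.46 and −0.87 on the Th1 and Th0 array. The means differed by 0.57. Klrd1 and Klrk1 thus passed 2-fold on the Th1 and Th0 array and not on the other as deposited. Centring on the most repeated value ended both calls, with −0.61 for Klrd1 and −0.32 for Klrk1 on the Th1 and Th0 array, and put Klrd1 at 0.04 on the Th17 and Th0 array.

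Klre1 and Klri2, whose products are known to pair with each other, showed the opposite. Klre1 lay at −1.95 on the Th17 and Th0 array and at −0.75 on the Th1 and Th0 array, a difference of −1.20. Klri2 lay at −2.09 on the Th17 and Th0 array and at −0.39 on the Th1 and Th0 array, a difference of −1.69, and its Th1 value was the one nearest to 0 in the group. Each had 1 probe.

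Clec genes lay on both sides of the ratio (14 of 28 above 0 on the Th17 and Th0 array and 13 on the Th1 and Th0 array as deposited) and included the largest difference between the arrays of all members. Of 28 genes, 9 passed 2-fold on the Th17 and Th0 array (4 positive and 5 negative), 8 on the Th1 and Th0 array (6 and 2) and 7 in the difference (1 and 6). The positive and negative shares of all named genes were 2.9% and 5.52%, 3.27% and 6.92%, and 4.53% and 3.61%. With centring on control genes 3 Clec genes were positive and 4 negative on the Th1 and Th0 array, and likewise in the difference. With centring on the most repeated value the Clec counts were 10 and 1, and 0 and 7. The median lay near 0 on both arrays, at −0.04 on the Th17 and Th0 array and −0.02 on the Th1 and Th0 array, and its side changed with the centring.

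Of the 7 Clec4 genes of the Dectin-2 cluster, Clec4n, Clec4d and Clec4e were at least 2-fold apart between the arrays, while Clec4a1, Clec4a2 and Clec4a3 differed by 0.23, −0.16 and −0.18. Clec4n, the gene of Dectin-2, a receptor for fungal mannans, lay at −2.74 (6.66-fold) on the Th17 and Th0 array and at 0.55 on the Th1 and Th0 array, a difference of −3.29 (9.78-fold). Clec4d, which encodes a partner of Mincle and Dectin-2, lay at −0.86 on the Th17 and Th0 array and at 1.23 on the Th1 and Th0 array, a difference of −2.08. For both the arrays lay on opposite sides of 0, also when centred on their median or on control genes.

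Clec4e, the gene of Mincle, a receptor for mycobacterial glycolipid, rests on probes that disagree. They lay at 0.04 and 0.24 on the Th17 and Th0 array and at 2.36 and 0.30 on the Th1 and Th0 array, so the difference of −1.19 between the means came from 1 probe. The probes of Clec4b1, a dendritic cell receptor, lay at −0.08 and −1.69 on the Th17 and Th0 array and at −0.35 and 0.36 on the Th1 and Th0 array, and its mean on the Th1 and Th0 array, 0.01, was the value nearest to 0 among Clec genes.

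Clec7a, the gene of Dectin-1, the receptor for fungal beta-glucan, was read by 4 probes. They ran between −0.87 and −0.21 on the Th17 and Th0 array and between 0.20 and 2.09 on the Th1 and Th0 array, with means of −0.57 and 1.16 and a difference of −1.74 (3.33-fold). Each probe differed by at least 1.08 to the negative side, though probes of a gene are not replicates of a sample. Clec5a, a DAP12-coupled receptor of myeloid cells, had probes at −1.27 and −2.04 on the Th17 and Th0 array and at −0.33 and −0.01 on the Th1 and Th0 array, a difference of −1.49 between the means.

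Other myeloid lectins were past 2-fold on each array. Clec4a3, of the dendritic cell immunoreceptor group, lay at 1.56 on the Th17 and Th0 array and at 1.74 on the Th1 and Th0 array, and Clec10a, the macrophage galactose lectin, at 1.04 and 1.43. Clec4a2, an inhibitory receptor of that same group from the same stretch of the chromosome, lay on the negative side of both, at −1.34 on the Th17 and Th0 array and −1.18 on the Th1 and Th0 array. These related genes kept opposite sides of 0 on both arrays under each of the 3 other centrings, though Clec4a2 was then below 2-fold on both when centred on the most repeated value.

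Clec2 genes, several of which encode ligands of the Klrb1 receptors, leaned to the positive side where they passed 2-fold, except Clec2m. Clec2d, the ligand of Klrb1b, lay at 1.39 on the Th17 and Th0 array and at 0.01 on the Th1 and Th0 array, a difference of 1.38. Clec2i, the ligand of Klrb1f, lay at 1.32 on the Th17 and Th0 array and at 0.42 on the Th1 and Th0 array. Clec2h lay at 0.86 and 1.02. Clec2m lay at −2.43 on the Th17 and Th0 array and at −2.17 on the Th1 and Th0 array. Its values fit weaker channels as low as 1 and 2 units if signals are whole numbers. Multiples of these fit too, so whether its size rests on very low signal is unknown.

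Clec1a was past 2-fold on the Th17 and Th0 array through 1 probe. That probe lay at −5.38 on the Th17 and Th0 array and at −2.35 on the Th1 and Th0 array, while the other probes lay at 0.26 and 0.27 on the Th17 and Th0 array and at 0.12 and 0.46 on the Th1 and Th0 array. The mean of −1.62 on the Th17 and Th0 array turned to 0.26 when the median over probes was taken, and the difference of −1.03 to 0.14. The probes of Clec1b, a receptor for podoplanin known from platelets, also lay far apart, at 1.15 and 0.34 on the Th17 and Th0 array and at 1.37 and 0.15 on the Th1 and Th0 array.

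The remaining 15 Clec genes, Clec1b and Clec4b1 among them, passed 2-fold in no comparison. They ranged between −0.98 and 0.75 on the Th17 and Th0 array, between −0.93 and 0.76 on the Th1 and Th0 array and between −0.89 and 0.74 in the difference. They were Clec9a, a dendritic cell receptor for dead cells, the inhibitory Clec12a, Clec12b, the secreted Clec11a and Clec3b, the endothelial Clec14a, the liver lectins Clec4f and Clec4g, Clec2e, Clec2g, Clec4a1, Clec16a and Clec18a beside those named above. Clec16a, an endosomal protein whose name outlived its class, lay nearest to 0 on the Th17 and Th0 array, at 0.02, with probes at 0.16 and −0.13 there and at 0.03 and −0.10 on the Th1 and Th0 array.

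**Figure D3:**
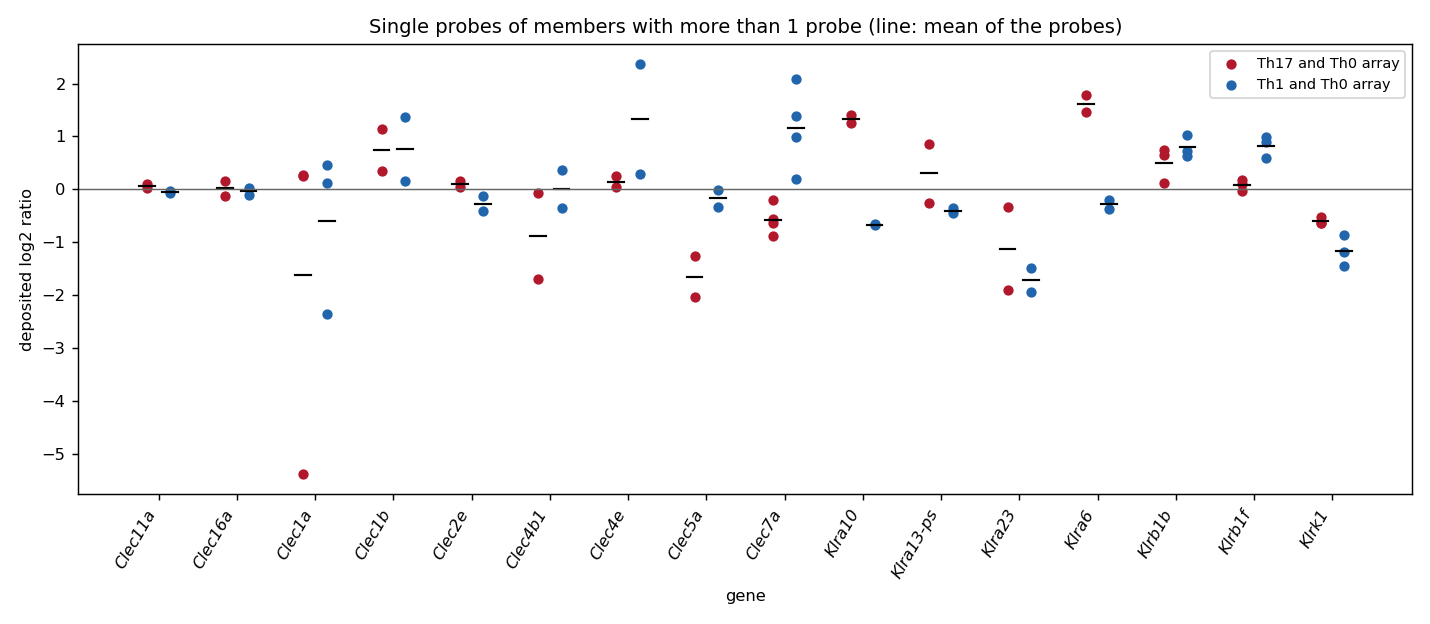
Deposited log2 ratio of each probe of the 16 members read by more than 1 probe, on the Th17 and Th0 array (red) and on the Th1 and Th0 array (blue), with the mean of a gene's probes as a black line. A probe of Clec1a at −5.38 lies far from the other 2, and probes of a gene are not replicates of a sample.

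Most of these genes lie on chromosome 6, and the difference between the arrays changed along their order. By the current gene list 40 members were ranked along this chromosome, from Klrg1 to Klra2. The order passes through the Clec4, Klrb1 and Clec2, Clec12 to Clec7, Klre to Klri and Klra stretches. Only members were ranked, so distances and other genes between them were not looked at. Over all 17501 named genes 9440 differences were positive and 8060 negative. From Klra17 to Klra1, 9 of 9 genes had a positive difference, with a median of 1.61. Klra2, the next member after Klra1, had a negative difference (−0.37) and was left out of this stretch, so the count follows from where it was cut. From Clec12a to Clec7a, 6 of 6 genes had a negative difference, with a median of −0.34 and values down to −1.74, as deposited. With centring on control genes 3 of these 6 were negative, and Clec1a turned to 0.14 with the median over probes. Among Klrg1 and the 7 Clec4 genes 2 of 8 were positive, with a range between −3.29 and 1.17. The Klrb1 and Clec2 stretch, with 6 of 10 positive and a median of 0.31, and the stretch from Klre1 to Klri2, with 4 of 6 positive and a median of 0.28, held genes of both signs, and their medians turned to −0.11 and −0.14 with centring on the most repeated value. Centring on control genes adds 0.26 to each difference and centring on the most repeated value takes away 0.42, so small differences change side and the order of genes does not. The stretches were bounded with the values in view.

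**Figure D4:**
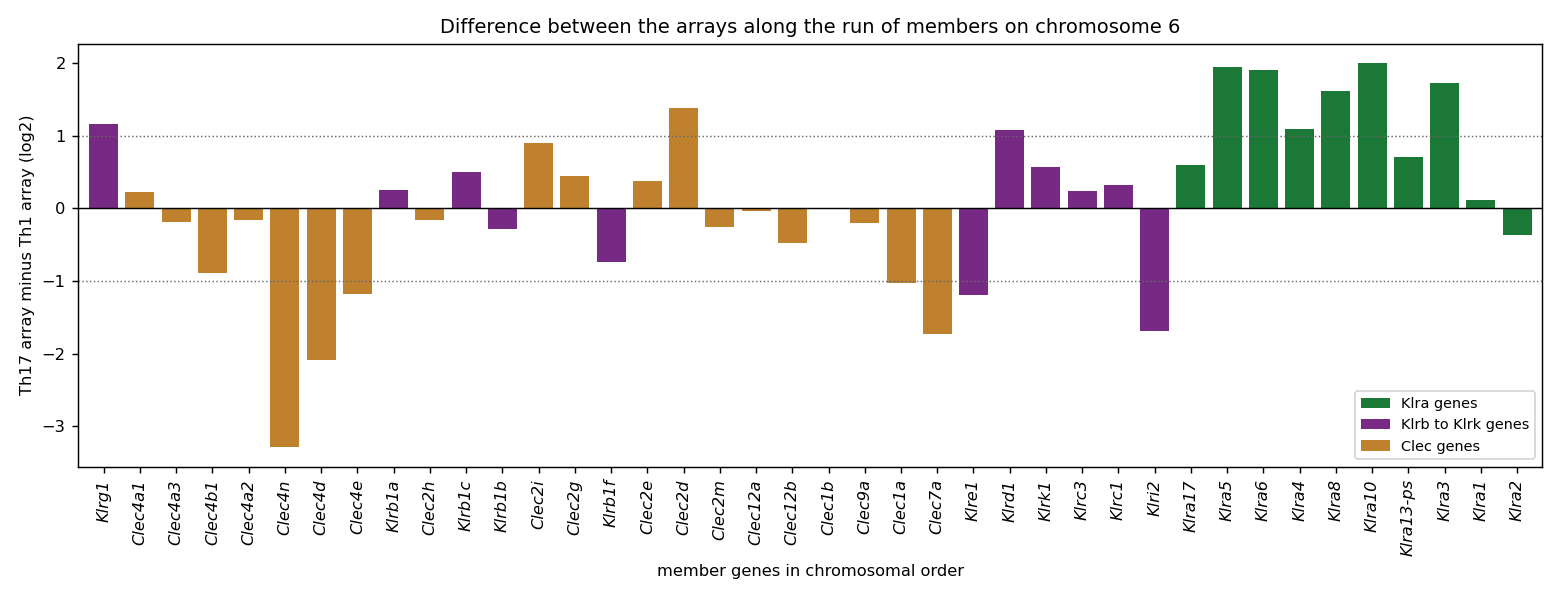
Difference of the log2 ratios (Th17 array minus Th1 array) of 40 members in their order along chromosome 6, coloured by group, with dotted lines at 2-fold. The bars from Klra17 to Klra1 all lie above 0 as deposited, that of Klra1 at 0.11 falling below it when arrays are centred on the most repeated value. The bar of Klra2, next after Klra1, lies below 0, and the bars of Clec4n, Clec4d and Clec7a lie furthest below.

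The genes that carry signals from these receptors had medians near 0 as a list. Its adaptors did not share a side on both arrays. Of 23 listed genes 21 were measured, with 3 positive and 0 negative members at least 2-fold apart on each array. Among all named genes 2.9% and 5.52% were on the Th17 and Th0 array and 3.27% and 6.92% on the other. The list's medians were −0.03 on the Th17 and Th0 array and 0.10 on the Th1 and Th0 array. Over all named genes they were −0.03 and −0.08. Tyrobp, the gene of DAP12, lay at 1.09 on the Th17 and Th0 array and at 2.52 on the Th1 and Th0 array, and Fcer1g, the gene of the Fc receptor gamma chain used by Dectin-2, at 1.06 and 2.98. Hcst, the gene of DAP10, the partner of NKG2D, lay at 0.92 on the Th17 and Th0 array and at −0.22 on the Th1 and Th0 array, and the kinase gene Syk at −0.39 and 1.11. Sh2d1b1, the adaptor EAT-2, lay at 1.22 on the Th17 and Th0 array and at 0.91 on the Th1 and Th0 array. Hcst was named after its value was seen.

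Known ligands were measured for 11 of 17 listed genes. On the Th17 and Th0 array 4 passed 2-fold, against 8.42% of all named genes. On the Th1 and Th0 array 2 did, against 10.2%. The NKG2D ligands did not lie on 1 side. Ulbp1 lay at 2.55 on the Th17 and Th0 array and at 0.76 on the Th1 and Th0 array, Raet1e at −1.76 and −1.25, and Raet1d at −1.06 and −0.88. Pdpn, the podoplanin ligand of Clec1b, lay at −2.55 on the Th17 and Th0 array and at −0.10 on the Th1 and Th0 array, and Cdh1, the E-cadherin ligand of Klrg1, at 0.67 and 3.01. The Qa-1 gene H2-T23, ligand of the NKG2A and CD94 pair, lay at −0.17 on the Th17 and Th0 array and at 0.00 on the Th1 and Th0 array, and was named after its values were seen.

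As deposited, 15 of 16 markers of NK cells outside the family lay above 0, the side of Klrb1c, on the Th17 and Th0 array. On the Th1 and Th0 array 11 of 16 did. Of all 17501 named genes 8109 and 7461 did. At least 2-fold apart were 10 positive and 0 negative genes on the Th17 and Th0 array (2.9% and 5.52% of all named genes). On the Th1 and Th0 array 6 positive and 1 negative were (3.27% and 6.92% of all). The medians were 1.72 and 0.79. The cytotoxic genes Prf1 (3.24 and 3.43), Gzmb (2.83 and 0.47) and Nkg7 (2.39 and 0.68), the transcription factor gene Eomes (2.33 and 2.29, with widely differing probes), and the receptor genes Cd244a (1.96 and 1.97) and Fcgr3 (0.44 and 1.87) are given for the Th17 and Th0 array and the Th1 and Th0 array. Below 0 on the Th1 and Th0 array as deposited, beside Ncr1, were Il18rap (−1.24), Cd226 (−0.74), Styk1 (−0.71) and Itga2 (−0.06), named after their values were seen. With centring on the most repeated value 15 of 16 lay above 0 there, as did 15815 of all 17501 named genes. Many of the listed markers are used by cytotoxic T cells too. Ncr1, the marker most restricted to NK cells, lay at −0.68 on the Th17 and Th0 array and at −0.10 on the Th1 and Th0 array, and Klrc1, Klrc3, Klrd1 and Klrk1, also genes of NK cells, lay opposite to the list. CD8 and innate-like T cell markers had medians of 0.01 and −0.10. Cd8a lay at 0.03 and −0.13, and of the 6 genes of its list Cd163l1, at 1.03 and 0.91, was the 1 past 2-fold. The part of NK cells in these values was not tested.

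Markers of myeloid and dendritic cells, which are known to express many Clec genes, lay more to the positive side on the Th1 and Th0 array than on the other. Their median was 1.05 over 18 measured genes there, with 9 at least 2-fold positive and 2 negative (3.27% and 6.92% of all named genes). On the Th17 and Th0 array it was −0.08, with 4 positive and 3 negative (2.9% and 5.52% of all). The complement gene C1qb (2.01 and 1.98), the neutrophil genes S100a9 (2.14 and 1.98) and S100a8 (1.05 and 1.92), the myeloperoxidase gene Mpo (2.98 and 1.26), the integrin gene Itgax (−0.35 and 1.95), the receptor gene Cd14 (−2.04 and 0.84) and the dendritic cell growth factor receptor gene Flt3 (−2.80 and −0.17) are given for the Th17 and Th0 array and the Th1 and Th0 array. The difference between the arrays was above 0 for 7 of the 18 and had a median of −0.40, with values between −2.88 for Cd14 and 1.72 for Mpo. With centring on control genes it was above 0 for 9 of 18, with a median of −0.14. The part of myeloid cells in the Clec values was not tested.

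T cell identity genes lay on the negative side, with medians of −0.997 on the Th17 and Th0 array and −0.69 on the Th1 and Th0 array over 11 genes, although the median on the Th1 and Th0 array became 0.16 once that array's most repeated value was set to 0. Cd4 lay at −1.27 on the Th17 and Th0 array and at −1.17 on the Th1 and Th0 array, Cd5 at −1.34 and −0.52, Cd2 at −1.26 and −0.70, Lat at −1.23 and −0.82, Cd3d at −1.001 and −1.43, and Cd28 at −0.09 and −1.39. The genes on the other side were Cd27 (0.55), Cd3g (0.43) and Cd3e (0.14) on the Th17 and Th0 array and Thy1 (0.19) on the Th1 and Th0 array, all 4 named after their values were seen. With centring on the most repeated value 0 of the 11 genes were past 2-fold on the Th17 and Th0 array, where 5 were as deposited. B cell markers had 1 of 7 genes past 2-fold on each array, Cr2 at −1.25 and −1.12. Control genes had 0 of 13 past 2-fold as deposited. With centring on the most repeated value 11 of 13 were at least 2-fold positive on the Th1 and Th0 array. So were 5214 of all 17501 named genes. In the difference 1 of 13 control genes was then 2-fold negative.

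As deposited, 3 of 22 lectin-fold receptors with other names (13.6%) were past 2-fold on the Th17 and Th0 array. On the Th1 and Th0 array 2 of 22 (9.09%) were. The medians were −0.18 and −0.19. All named genes had 8.42% and 10.2% past 2-fold, and the members 39.6% and 34%. The scavenger receptor gene Olr1, which lies in the same chromosomal complex, lay at −2.88 and −1.06, the mannose receptor gene Mrc1 of macrophages at −0.29 and 1.99, Cd209a at 1.12 and −0.68, and Cd93 at 1.27 and 0.88 on the Th17 and Th0 array and the Th1 and Th0 array. The difference in share was not tested.

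**Figure D5:**
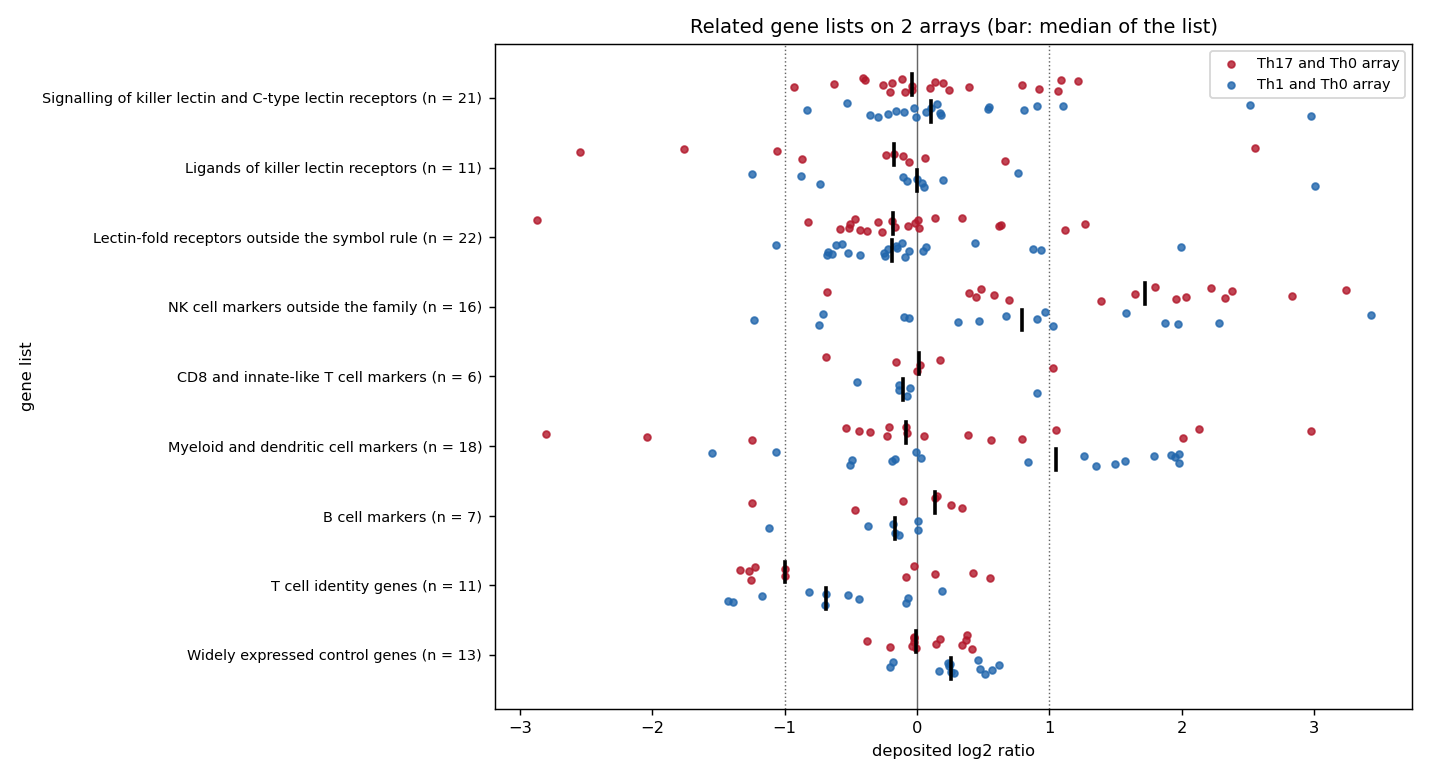
Deposited log2 ratio of every measured gene of 9 related lists on the Th17 and Th0 array (red, upper row of each list) and on the Th1 and Th0 array (blue, lower row), with list medians as black bars and dotted lines at 2-fold. As deposited, NK cell markers have medians of 1.72 and 0.79, myeloid and dendritic cell markers of −0.08 and 1.05, and T cell identity genes of −0.997 and −0.69 on the Th17 and Th0 array and the Th1 and Th0 array, of which −0.08 and −0.69 turn positive with arrays centred on the most repeated value.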

How the data were processed

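The authors deposited 1 value per probe and array for 36547 probes, taken as the log2 ratio of the channels. The unit was read from the values: repeated values lie apart by log2 of small whole-number ratios. For scanner, background correction, normalisation, added constant, centring and direction of the ratio: not given in the sources used here. Array medians were −0.045 (Th17) and −0.11 (Th1), and the most repeated values −0.43 and −0.85.

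Probe symbols came from the platform annotation, which can be old, updated through gene numbers (assembly GRCm38.p6, for names and gene order). Of 26926 probes with 1 gene, 26774 matched, among the members all but 2 of 75. The 203 probes with several genes and 9418 unnamed ones were left out. Probes were averaged per gene. Of the members 37 had 1 probe. The SD between probes of a gene, pooled over 5886 genes with more than 1 probe, was 0.49 (Th17) and 0.51 (Th1). It covers probes, not samples.

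A probe's weaker channel was called very low where its ratio, relative to the most repeated value, matched whole-number signals with at most 5 units in the weaker channel (tolerance 0.00011 log2). A match was found for 2 of the 75 member probes on the Th17 and Th0 array (2.24% of all probes) and 7 on the Th1 and Th0 array (3.00%). Multiples of such signals give the same ratio, so a match does not show that the signal was low. The search was checked on simulated signals.

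With 1 array per comparison there was no test, and genes at least 2-fold apart were counted. Named genes were the members past 2-fold in any comparison or with disagreeing probes, the markers, the value nearest to 0 per group and array, and up to 4 genes of each list past 2-fold per array. The members, lists and rules were chosen with earlier results of these data known. Python 3.11.15, pandas 2.3.3, numpy 2.4.6, Biopython 1.88 and matplotlib 3.10.9 were used. Alternatives were other centrings, other summaries of probes, leaving out probes of very low signal, and other folds.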

Additional observations from a re-analysis of the deposited data

Results flagged for a closer look

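For 8 members the arrays lay on opposite sides of 0 and at least 2-fold apart from each other. With 1 array per group, the difference was not tested. This rule was counted for members only, so the 8 cannot be set against all named genes. The Th17 value minus the Th1 value was 1.997 for Klra10, 1.95 for Klra5, 1.90 for Klra6, 1.72 for Klra3 and 1.49 for Klra16. It was −3.29 for Clec4n, −2.08 for Clec4d and −1.74 for Clec7a. Of these, Klra10, Klra6 and Clec7a had more than 1 probe, and their probes, which are not replicates of a sample, are given above. With centring on the most repeated value 5 of the 8, the Klra genes, were positive on both arrays, Klra10 at 1.75 and 0.18 and Klra16 at 1.28 and 0.21 on the Th17 and Th0 array and the Th1 and Th0 array, and the 3 Clec genes kept opposite sides.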

How the results depend on the processing

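No paired analysis was possible because each group held 1 array. With a threshold of 3-fold in place of 2-fold, members apart on the Th17 and Th0 array numbered 12 in all, 2 Klra and 4 Clec, on the Th1 and Th0 array 10 in all and 2 Clec, and in the difference 9 in all, 1 from Klrb to Klrk and 3 Clec. With 1.5-fold they numbered 16 Clec on the Th17 and Th0 array, 29 in all, 7 Klra and 13 Clec on the Th1 and Th0 array, and 11 Klra and 11 Clec in the difference. Shares of all named genes were counted at 2-fold only, so these counts cannot be set against all genes. Centring on the most repeated value left 1 Klra gene apart on the Th1 and Th0 array and turned these medians: Klrb to Klrk to 0.11 and Clec to 0.39 on the Th17 and Th0 array, Klra to 0.28, Klrb to Klrk to 0.46 and Clec to 0.82 on the Th1 and Th0 array, and Klrb to Klrk to −0.18 in the difference. The Clec median, near 0, also turned with centring on the array median (0.0069 on the Th17 and Th0 array and 0.0879 on the Th1 and Th0 array), on control genes (0.10 in the difference), with the median over probes (0.0375) or the probe of largest absolute value (0.0036) on the Th17 and Th0 array, and without probes of very low signal (0.0164 on the Th17 and Th0 array and 0.0074 on the Th1 and Th0 array). Taking the probe of largest absolute value moved the Klra median on the Th17 and Th0 array to 0.85. Of single genes past 2-fold, Clec1a reversed with the median over probes, to 0.26 on the Th17 and Th0 array and 0.14 in the difference. A shift of zero by construction causes the turns under centring, and for the others the cause was not tested. Leaving out the probes called of very low signal removed 4 members, Clec12a, Clec14a, Clec2m and Klra4. The deposited ratios hold no intensities, so how far signal limits the values is unknown.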

Other observations

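Probes assigned to more than 1 member were outside all counts. A probe shared by Klra9 and Klra10 lay at −0.55 on the Th17 and Th0 array and at −2.58 on the Th1 and Th0 array, a difference of 2.03, close to the 1.997 of Klra10. Its values on the arrays differed from those of the Klra10 probes, which lay at 1.40 and 1.25 on the Th17 and Th0 array and at −0.68 and −0.66 on the Th1 and Th0 array. A probe shared by Klrc2 and Klrc3 lay at −0.44 on the Th17 and Th0 array and at −0.69 on the Th1 and Th0 array, nearer to 0 than the Klrc3 probe at −1.95 and −2.19.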
